A study of Mus musculus with 64 samples.

Results

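The nuclear-encoded genes of the mitochondrial respiratory chain were followed across 64 libraries of mouse ventral tegmental area. Members were the gene symbols of the deposited count table that name a subunit family of complex I (Nduf genes of the a, b, c, s and v series), complex II (Sdha to Sdhd), complex III (Uqcr), complex IV (Cox4 to Cox8) or ATP synthase (Atp5), with a mean of 10 or more counts over the 64 libraries. Of 24421 symbols in the table, 84 bore such a name and 81 reached that mean, 36 of complex I, 4 of complex II, 8 of complex III, 16 of complex IV and 17 of ATP synthase. All 81 also passed the low-count filter of the tests. The symbols left out were Ndufs5, listed at 0 in all 64 libraries, Cox8c, with a mean of 0.0625 counts, and Cox7b2, with a mean of 2.03 counts. The members nearest above the minimum were Cox8b, with a mean of 14.0 counts, Cox6a2 with 14.98 and Cox4i2 with 60.97.

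The ventral tegmental area is the midbrain region that holds the mesolimbic dopamine neurons, and each library came from punches of 1 adult male mouse of strain 129S1/Svlm. Mice were labelled Clock delta 19 mutant, whose altered CLOCK protein blocks the clock's transcription loop, or Wildtype, and received valproate (VPA, a mood stabiliser and weak histone deacetylase inhibitor), ACY957 (which inhibits the class I enzymes) or one of the matching vehicles. Treatment lasted 14 days and the brain was sampled at zeitgeber time 6, some 24 h past the final dose. The labels put 8 libraries in each of VPA mutant, VPA wildtype, ACY957 mutant and ACY957 wildtype, 13 in VPA vehicle mutant, 3 in VPA vehicle wildtype, 11 in ACY957 vehicle mutant and 5 in ACY957 vehicle wildtype. The study text counts 8 mice for every genotype and treatment, so the vehicle labels depart from it. The Clock allele is carried in every cell of the mutant, and the 1 mm punches hold neurons and glia together.

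The respiratory chain passes electrons from NADH through complex I, or from succinate through complex II, to ubiquinone, then through complex III and cytochrome c to complex IV, which reduces oxygen. Complexes I, III and IV pump protons across the inner mitochondrial membrane, and ATP synthase uses the gradient to make ATP. Most subunits are encoded in the nucleus, as those described here are, and firing neurons depend on this pathway for most of their ATP. The mitochondrially encoded subunits were not analysed here.

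Library totals ranged from 20.1 M to 37.5 M counts, with a median of 25.8 M. By group the median was 32.5 M in VPA wildtype libraries and between 23.4 M and 26.6 M in the other groups. The comparisons that use VPA wildtype libraries therefore also differ in median depth. Levels are given as CPM, the count of a gene per M counts of its library, with library totals adjusted by the TMM scaling of edgeR. The average log2 CPM of 8 genes driven by the clock, used as a score of clock output, fell into a lower set up to 4.33 and an upper set from 4.91. The upper set held 12 of the 40 mutant-labelled libraries and the lower set 1 of the 24 wildtype-labelled ones, so 13 libraries went against their genotype label. Among vehicles these were 6 of 13 VPA vehicle mutant and 3 of 11 ACY957 vehicle mutant libraries. Among drug-treated mice they were 1 of 8 VPA mutant, 2 of 8 ACY957 mutant and 1 of 8 ACY957 wildtype libraries. Th, the gene for tyrosine hydroxylase, which limits the rate at which dopamine is made, was under 8 log2 CPM in 4 libraries, 2 of VPA mutant and 1 each of VPA wildtype and VPA vehicle mutant. All 10 dopamine neuron markers were detected in every library.

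Together the 81 genes took between 1.93% and 2.63% of a library's counts, with a median of 2.30%. The share averaged 2.40 ± 0.137% in VPA mutant and 2.30 ± 0.0769% in VPA wildtype libraries (SD, n = 8 each). It averaged 2.37 ± 0.111% in VPA vehicle mutant (SD, n = 13) and 2.21 ± 0.288% in VPA vehicle wildtype libraries (SD, n = 3). On the other arm it averaged 2.20 ± 0.174% in ACY957 mutant and 2.19 ± 0.146% in ACY957 wildtype libraries (SD, n = 8 each), 2.17 ± 0.193% in ACY957 vehicle mutant (SD, n = 11) and 2.21 ± 0.172% in ACY957 vehicle wildtype libraries (SD, n = 5). The ranges of all groups overlapped. In bulk tissue, fewer cells of a type and less RNA per cell cannot be told apart.

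**Figure D1:**
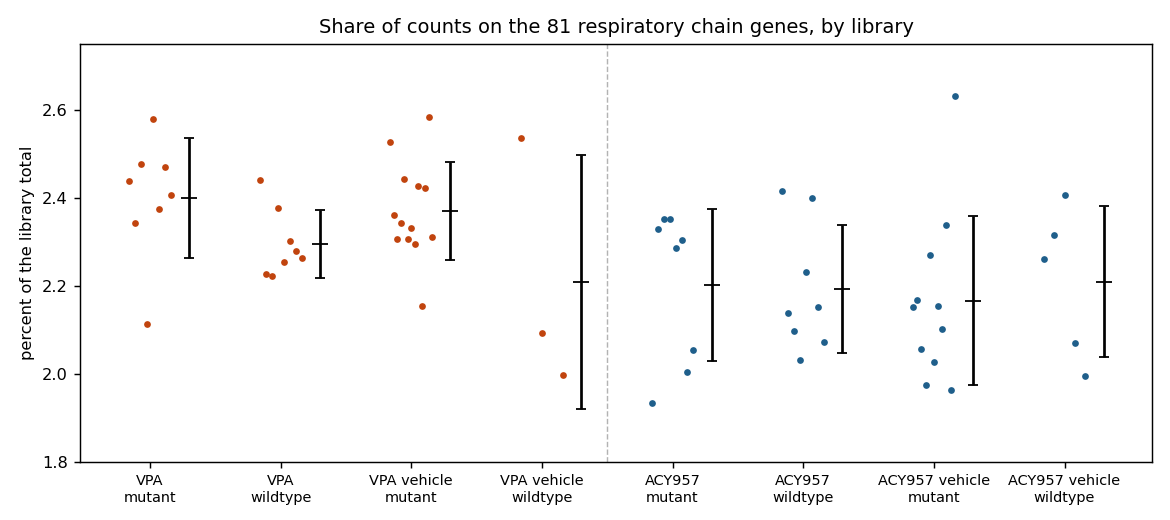
Percent of each library's total counts that fell on the 81 respiratory chain genes (y axis) in the 8 labelled groups (x axis). Points are libraries and bars are the mean and SD; VPA mutant libraries averaged 2.40% and ACY957 mutant libraries 2.20%, and the groups overlap.

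Levels between genes were compared as CPM per kb of merged exon sequence, given here as the mean and SD over all 64 libraries. Complex IV held both the highest and the lowest levels of the set. Cox4i1, the ubiquitous form of subunit 4, was at 740 ± 85.9 CPM per kb and Cox6a1, the ubiquitous form of subunit 6A, at 718 ± 82.5 CPM per kb. Cox6a2, the heart and muscle form of the same subunit, was at 0.834 ± 0.516 CPM per kb, and Cox8b, a muscle form of subunit 8, at 1.47 ± 0.921 CPM per kb. The bars of Cox4i1 and Cox6a1 overlapped, as did those of Cox6a2 and Cox8b.

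In complex I the highest levels were those of Ndufa4, a small protein since also assigned to complex IV, at 340.5 ± 40.9 CPM per kb, and Ndufb9, an accessory subunit of the membrane arm, at 327 ± 37.5 CPM per kb. The lowest were Ndufa4l2, a paralog of Ndufa4 known as a target of the hypoxia response, at 3.41 ± 0.730 CPM per kb, and Ndufb2, another membrane-arm subunit, at 22.03 ± 2.61 CPM per kb. Sdha, the flavoprotein that oxidises succinate, was at 188 ± 6.50 CPM per kb, Sdhd, a membrane anchor, at 171 ± 14.2, Sdhb, the iron-sulfur subunit, at 103 ± 7.48, and Sdhc, the other anchor, at 65.0 ± 5.82 CPM per kb.

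Complex III ran between 356 ± 40.4 CPM per kb for Uqcrh, the hinge protein, and 104 ± 11.7 CPM per kb for Uqcrq, a small subunit. In ATP synthase Atp5a1, the alpha subunit of the catalytic head, was at 642 ± 36.6 CPM per kb and Atp5b, its catalytic beta subunit, at 575 ± 39.1 CPM per kb. Atp5o, a stator subunit, was at 718 ± 75.3 CPM per kb, but 83.8% of its 75-base stretches are shared with the overlapping annotation of Donson, so its level is uncertain. Atp5l, the g subunit, at 9.32 ± 1.64, and Atp5s, a coupling factor, at 12.1 ± 1.10 CPM per kb, were lowest. The divisor matters within a complex: per kb of the longest transcript Atp5b was at 1272 CPM and Atp5a1 at 753 CPM.

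**Figure D2:**
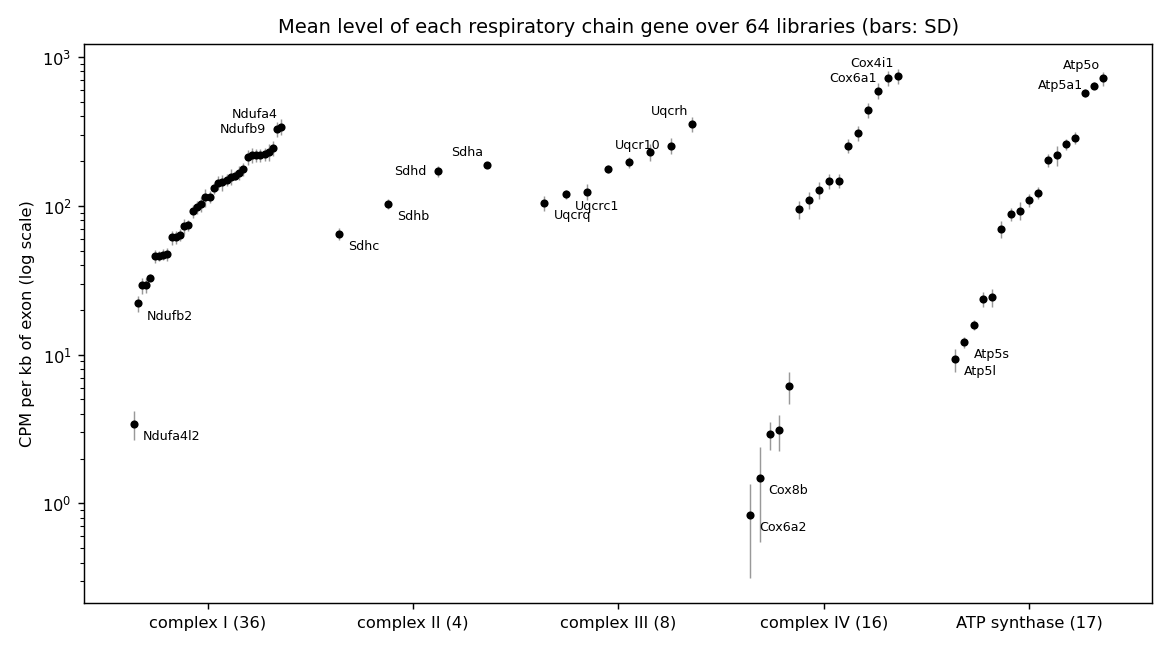
Mean level of each of the 81 genes over 64 libraries in CPM per kb of exon (y axis, log scale), grouped by complex and sorted within it; bars are the SD, and the highest and lowest genes are named. Complex IV runs between 0.834 CPM per kb for Cox6a2 and 740 CPM per kb for Cox4i1.

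Where the table holds paralogs of a subunit, the ubiquitous form made up nearly the whole of the family's level per kb. Cox4i1 made up 99.6% of its pair with Cox4i2, the lung and hypoxia form, and Cox6a1 99.9% of its pair with Cox6a2. Cox6b1 made up 99.3% of its pair with Cox6b2, a testis form, and Cox8a 99.8% of its pair with Cox8b. Ndufa4 made up 99.0% of its pair with Ndufa4l2.

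The remaining families were more mixed. Cox7a2, the liver form of subunit 7A, made up 66.8 ± 2.14% of its triplet, Cox7a2l, a factor of supercomplex assembly, 31.9 ± 2.19%, and Cox7a1, the heart and muscle form, 1.32 ± 0.263% (SD, n = 64). Of the genes for the c subunit, which forms the rotor ring of ATP synthase and is one mature protein whichever gene it comes from, Atp5g3 made up 84.3%, between 79.8% and 86.5% in single libraries, Atp5g1 7.91% and Atp5g2 7.75%.

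Variation between libraries was small for most members. The SD was between 3.46% of the mean, for Sdha, and 62.5%, for Cox8b, with a median of 11.2%. Once group means were removed from log2 CPM, members varied together across libraries: the median correlation between 2 members was 0.63 and that of a member with the mean of the others 0.83, over 64 libraries. Of the 81 genes, 59 had a correlation over 0.7 with the mean of the others. Closest to it were Cox7a2 (0.94), Atp5h (0.93), a stator subunit, Cox4i1 (0.92), Ndufb11 (0.92), a membrane-arm subunit, and Uqcrh (0.91).

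A few stood apart from this shared movement. Atp5s was at -0.11, Cox6a2 at -0.03, Cox6b2 at 0.03, Cox4i2 at 0.16 and Sdha at 0.17, and Atp5sl and Uqcrb were also under 0.3. Cox6a2, Cox6b2 and Cox4i2 are among the members with the fewest counts, but Sdha, at 775 CPM, is abundant and is also the member with the least spread. Atp5sl, now named Dmac2, is known as a complex I assembly factor and not as an ATP synthase subunit.

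Outside the 81, the genes with the highest correlation to the members' mean were Myeov2 (0.91), a small protein that binds the COP9 signalosome, Cyc1 (0.91), the cytochrome c1 subunit of complex III, whose name the rule does not match, Tmem147 (0.90), a membrane protein of the endoplasmic reticulum, 2010107E04Rik (0.90) and Enho (0.90), which encodes the peptide adropin. The members' mean log2 CPM had a correlation of 0.94 with that of 77 mitochondrial ribosomal protein genes and of 0.67 with that of 79 cytosolic ribosomal protein genes. Its correlation with Th was 0.22 and with log2 library totals 0.37. All of these are descriptions over 64 libraries with group means removed, in which every gene shares its library and depth.

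The 81 genes lie on 19 chromosomes and are short. Their median merged exon length was 1569 bases, against 4336 for all genes tested, and their median GC content was 50.97%, against 49.76%. Of the members 15 share over 10% of their 75-base stretches with another gene or pseudogene, Ndufb4, Ndufb6 and Cox7c among them, so the counts of these 15 are uncertain.

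Member promoters were read for motifs of factors known for nuclear genes of mitochondria. Whether such motifs have a part in the members' shared movement was not tested. RefSeq promoters (GRCm38.p6, 250 bases before to 50 after the start) matched 67 of the 81 genes, 64 by symbol and 3 by an older symbol. The NRF1 motif, the consensus of 10 bases with 1 free base that nuclear respiratory factor 1 binds, was found on either strand in 15 of 67 member promoters (22.4%), against 4.78% of 27025 promoters in all. The ETS motif CCGGAAGT, the site of GABP, was found in 7.46% of member promoters, against 4.0% of all, and the YY1 motif AANATGGCG in 13.4%, against 2.51%. The cyclic AMP response element TGACGTCA was found in 5.97%, against 1.88%, and the E-box CACGTG, the motif bound by CLOCK with BMAL1, in 10.4%, against 7.24%. Member promoters held a median of 19 CG pairs, against 7 in all promoters, and no promoters matched on composition were compared.

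The 250 bases before the start are shown for the 4 members that hold an NRF1 match there and that passed a test between the drug arms below. Capitals mark each NRF1 match on either strand. They are Ndufb4 (chr16:37654369-37654618 on the minus strand), Ndufa8 (chr2:36049339-36049588 on the minus strand), Atp5h (chr11:115419920-115420169 on the minus strand) and Atp5g2 (chr15:102671048-102671297 on the minus strand), read 5′ to 3′ along the gene on GRCm38.
Ndufb4: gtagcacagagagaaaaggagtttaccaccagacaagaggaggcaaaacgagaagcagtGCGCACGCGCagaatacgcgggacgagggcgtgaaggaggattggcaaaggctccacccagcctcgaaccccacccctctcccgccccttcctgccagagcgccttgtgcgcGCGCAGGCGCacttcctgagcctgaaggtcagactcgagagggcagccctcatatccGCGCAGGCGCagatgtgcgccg
Ndufa8: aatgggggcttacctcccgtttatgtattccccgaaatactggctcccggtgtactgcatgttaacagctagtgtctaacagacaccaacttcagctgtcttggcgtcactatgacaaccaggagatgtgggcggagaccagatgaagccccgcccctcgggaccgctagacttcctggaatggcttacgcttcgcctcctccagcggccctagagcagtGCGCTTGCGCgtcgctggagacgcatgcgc
Atp5h: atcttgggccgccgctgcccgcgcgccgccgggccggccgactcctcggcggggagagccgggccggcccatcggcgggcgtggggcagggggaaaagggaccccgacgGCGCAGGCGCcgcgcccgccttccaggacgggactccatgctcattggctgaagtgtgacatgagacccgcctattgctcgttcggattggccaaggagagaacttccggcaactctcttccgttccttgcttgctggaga
Atp5g2: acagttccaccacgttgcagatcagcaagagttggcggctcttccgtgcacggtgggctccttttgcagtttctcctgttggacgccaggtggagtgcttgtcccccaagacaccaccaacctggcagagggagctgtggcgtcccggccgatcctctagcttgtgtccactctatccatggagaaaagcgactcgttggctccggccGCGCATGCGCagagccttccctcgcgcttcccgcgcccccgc
Ndufb4 holds 3 matches in this window and each of the other 3 genes holds 1. Members that passed neither test between the arms under the mutant label held NRF1 matches too, in 9 of 44 promoters over the 300 bases searched. A match was held by 1 of 7 promoters of members that passed both tests. It was held by 1 of 9 that passed between the vehicles only and by 4 of 7 that passed between the drugs only. A match is a description of the letters, not evidence that the factor binds.

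The first question of the design was whether either drug changed these genes against its own vehicle, and no member passed. Throughout, a gene passed when its adjusted p (Benjamini-Hochberg over 15634 genes) from edgeR's quasi-likelihood test was under 0.05, and fold changes are on the log2 scale with their standard error (SE). In VPA mutant against VPA vehicle mutant libraries, 0 of 81 members passed, where 0.0576% of all genes did. By unadjusted p under 0.05 there were 5, and DESeq2 and limma-voom also called 0. The median log2 fold change of the 81 was 0.03, against 0.00 for all genes, with 67 higher and 14 lower in VPA, and the median SE was 0.06. With each library's trend on transcript length and GC content removed, the median was -0.0094, with 35 higher and 46 lower, so the direction turned.

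The smallest p belonged to Cox6a2, the muscle form of subunit 6A, at 1.05 ± 0.384 CPM in VPA mutant libraries (SD, n = 8) and 0.581 ± 0.350 CPM in VPA vehicle mutant libraries (SD, n = 13). Its log2 fold change was 0.85 (SE 0.32, adjusted p = 0.235, edgeR), and the groups overlapped. Cox6b2 followed at 0.36 (SE 0.14, adjusted p = 0.278, edgeR), with 4.47 ± 0.925 CPM in VPA mutant and 3.502 ± 0.994 CPM in VPA vehicle mutant libraries. Among abundant members Ndufa8, an accessory subunit of complex I, had 0.11 (SE 0.05, adjusted p = 0.368, edgeR).

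In VPA wildtype against VPA vehicle wildtype libraries 0 of 81 passed, where 0.0256% of all genes did, with 1 at unadjusted p under 0.05 and 0 by DESeq2 and limma-voom. The median was 0.05 with 64 members higher, but the vehicle group held 3 libraries and the median SE was 0.10. Without VPA vehicle wildtype replicate 1 the median was -0.02 with 32 higher. Cox6b2 had the smallest p again, at 0.50 (SE 0.23). Over both genotype labels, VPA against vehicle gave 0 of 81, where 0.0704% of all genes passed, with 5 at unadjusted p under 0.05, 0 by DESeq2 and limma-voom, and a median of 0.04, or 0.0076 under the length and GC correction. With the vehicles of both drugs pooled, 1 member passed in VPA mutant libraries, where 130 of 15255 genes did. Over both labels 1 member passed, where 450 of 15255 genes did.

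For ACY957 no member passed either. In ACY957 mutant against ACY957 vehicle mutant libraries 0 of 81 passed, where 0.0064% of all genes did, with 1 at unadjusted p under 0.05, 0 by DESeq2 and limma-voom, and a median of 0.02, which turned to -0.0043 without ACY957 mutant replicate 7 and to -0.00071 without ACY957 vehicle mutant replicate 8. That 1 was Ndufb4, at 88.5 ± 13.2 CPM in ACY957 mutant (SD, n = 8) and 78.7 ± 5.66 CPM in ACY957 vehicle mutant libraries (SD, n = 11), or on the log2 scale a difference of 0.17 (SE 0.06, adjusted p = 0.598, edgeR). In ACY957 wildtype against ACY957 vehicle wildtype libraries 0 of 81 passed, where 0.0064% of all genes did, with 1 at unadjusted p under 0.05 (Atp5g1, -0.20, SE 0.09), 0 by DESeq2 and limma-voom, and a median of -0.05 with 55 members lower. Over both labels 0 of 81 passed, where 0.0256% of all genes did, with 2 at unadjusted p under 0.05, 0 by DESeq2 and limma-voom, and a median of -0.01, which turned to between 0.00072 and 0.0043 without ACY957 vehicle wildtype replicate 3 or 4 or ACY957 mutant replicate 2.

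Whether a drug's difference depended on the genotype label was tested as an interaction. For VPA 0 of 81 members passed, where 0.0064% of all genes did, and for ACY957 0 of 81 passed, where 0.0% of all genes did. Neither had a member at unadjusted p under 0.05, and DESeq2 and limma-voom called 0. The median SE of an interaction was 0.12 for VPA and 0.10 for ACY957. For most members, log2 differences of that size, and ones well above it, could therefore not be told from 0.

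**Figure D3:**
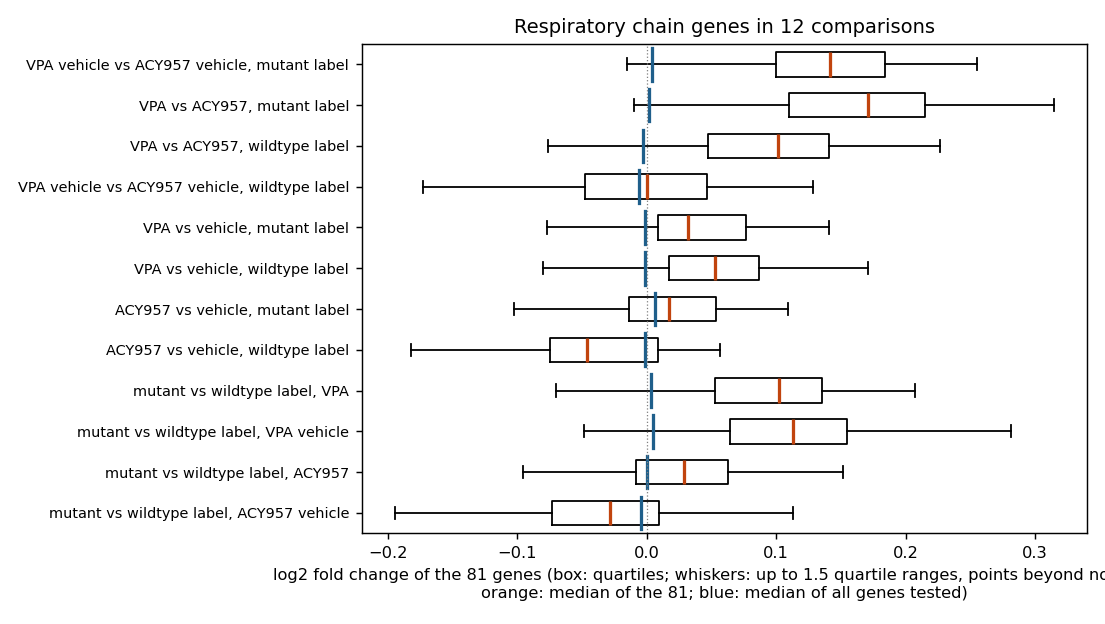
Log2 fold changes of the 81 genes (x axis) in 12 comparisons (y axis), as boxes of quartiles with the members' median in orange and the median of all 15634 genes in blue. The members' medians are 0.14 and 0.17 between the drug arms under the mutant label and lie between -0.05 and 0.05 for each drug against its vehicle.

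The comparisons of genotype labels addressed the Clock mutation. In VPA-treated mice 1 of 81 members passed, where 1.0% of all genes did. It was Atp5sl, now Dmac2 (chromosome 7, 25619414 to 25625551, plus strand, mm10), the assembly factor named above. Its level had a lowest, median and highest value of 48.04, 50.6 and 55.6 CPM in VPA mutant libraries and of 39.4, 46.1 and 48.9 CPM in VPA wildtype libraries. Of the 8 mutant libraries 6 lay above the highest wildtype library, and the ranges overlapped. The log2 fold change was 0.18 (SE 0.05, adjusted p = 0.0431, edgeR), and it passed in 43 of 64 repeats that each left out 1 library. It did not pass without VPA mutant replicates 2, 4, 7 or 8, VPA wildtype replicates 1, 2, 4, 5, 6 or 8, or, through the shared estimate of spread, ACY957 wildtype replicate 2, ACY957 mutant replicates 3 or 4, VPA vehicle mutant replicates 5, 10 or 13 or ACY957 vehicle mutant replicates 3, 7, 8, 9 or 10. Of 11 other settings it passed in 4. It did not pass with the compared groups alone, with no low-count filter, with Th as a covariate, under the length and GC correction, or without the 4 libraries low in Th, the 13 discordant in clock output or the 8 earlier mutant-labelled vehicle libraries.

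Ndufa8 had 0.21 (SE 0.06, adjusted p = 0.0626, edgeR) and Cox6a2 1.24 (SE 0.37, adjusted p = 0.0728, edgeR) in the same comparison. The members' median was 0.10 with 72 higher under the mutant label, and 0.02 with 53 higher under the length and GC correction. Beside them, the 10 dopamine neuron markers had a median of -0.63, 10 of them with negative values and 0 passing, and 3 hypothalamic neuron markers, Pmch, Hcrt and Tac2, rose. The endothelial marker Cldn5 rose by 0.55, while the assembly factor Cox18 fell by 0.63 and Gapdh, of glycolysis, by 1.04. Their part in the members' values was not tested.

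Under the other treatments no member passed between the labels. In ACY957-treated mice 0 of 81 passed, where 0.0% of all genes did, with 1 at unadjusted p under 0.05 and a median of 0.03. In VPA vehicle mice 0 of 81 passed, where 0.0064% did, with 5 at unadjusted p under 0.05 and a median of 0.11, and in ACY957 vehicle mice 0 of 81, where 0.0128% did, with 3 at unadjusted p under 0.05 and a median of -0.03. Without 1 library the medians ran between 0.04 and 0.24 in VPA vehicle mice, and in ACY957 vehicle mice the median turned to 0.00081 without wildtype replicate 3 and to 0.0012 without wildtype replicate 4. DESeq2 and limma-voom called 0 in these 3 comparisons. As a mean over the 4 treatments 0 of 81 passed, where 1.61% of all genes did, with 22 at unadjusted p under 0.05, 0 by DESeq2 and limma-voom, and a median of 0.05 with 64 members higher, or 0.01 with 50 higher under the length and GC correction.

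The member nearest to the threshold in that mean was Ndufb7, a membrane-arm subunit of complex I, with 0.13 (SE 0.04, adjusted p = 0.0734, edgeR). It was at 145 ± 12.3 CPM in VPA mutant and 129 ± 7.92 CPM in VPA wildtype libraries, and at 135 ± 13.6 CPM in ACY957 mutant and 126 ± 10.9 CPM in ACY957 wildtype libraries (SD, n = 8 each). Leaving out the 13 libraries that went against their label in clock output gave 6 members, where 677 of 15544 genes passed. Taking Th as a covariate gave 4, where 268 of 15634 genes passed. Leaving out VPA vehicle wildtype replicate 3 gave 5, and leaving out ACY957 vehicle wildtype replicate 3 or 4, VPA mutant replicate 2 or ACY957 vehicle mutant replicate 8 gave 1. Mice labelled wildtype are numbered 1 to 24 and those labelled mutant 25 to 64, so the label cannot be told apart from what runs with mouse number.

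Under the mutant label more members passed between the 2 drug arms than in any comparison of drug with vehicle or of genotype labels. In vehicle-treated mice labelled mutant, 18 of 81 members (22.2%) rose in the VPA vehicle group against the ACY957 vehicle group and 0 fell, where 3.66% of all genes passed, 1.85% as higher and 1.8% as lower. The median log2 fold change of the 81 was 0.14, against 0.00 for all genes, with 79 higher. The same comparison in drug-treated mice labelled mutant, VPA against ACY957, shares no library with the first and was added after the data were seen. There 15 of 81 (18.5%) rose and 0 fell, where 5.56% of all genes passed, 3.17% as higher and 2.39% as lower, with a median of 0.17 and 78 higher.

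Complex I, which holds 36 of the 81 members, gave the most of them in number. Between the vehicles 9 of its 36 members rose, with a median of 0.15, and between the drugs 8 of 36 rose, with a median of 0.17. By share it did not stand out, since 4 of 16 rose in complex IV between the vehicles. In ATP synthase 4 of 17 rose between the drugs. Ndufb10 (chromosome 17, 24722060 to 24724478, minus strand), an accessory subunit of the membrane arm, had a lowest, median and highest level of 203, 231 and 257 CPM in VPA vehicle mutant and of 173, 194 and 232 CPM in ACY957 vehicle mutant libraries. Its log2 fold change was 0.21 (SE 0.05, adjusted p = 0.0156, edgeR), and all 13 VPA vehicle libraries lay above the ACY957 vehicle median although the ranges overlapped.

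Between the drugs Ndufb10 had 198, 235 and 253 CPM in VPA mutant and 170, 197 and 234 CPM in ACY957 mutant libraries, or on the log2 scale a difference of 0.23 (SE 0.06, adjusted p = 0.0201, edgeR). All 8 VPA libraries lay above the ACY957 median and 4 above its highest library. Other members of the membrane arm that rose in both comparisons were Ndufb6, by 0.25 between vehicles and 0.25 between drugs, and Ndufb5, by 0.18 and 0.21. Ndufa12, an accessory subunit of the peripheral arm, rose by 0.18 and 0.21, and its 8 VPA mutant libraries, at 103.27 to 116 CPM, did not overlap the 8 ACY957 mutant libraries, at 82.9 to 103.26 CPM.

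Ndufc1 (chromosome 3, 51404677 to 51408988, minus strand), another membrane-arm subunit, had the smallest p of all members between the drugs. Its lowest, median and highest levels were 111, 123 and 139 CPM in VPA mutant and 84.2, 102 and 112 CPM in ACY957 mutant libraries. Of the 8 VPA libraries 7 lay above the highest ACY957 library, and the log2 fold change was 0.31 (SE 0.07, adjusted p = 0.00409, edgeR). Between the vehicles it was at 115 ± 9.41 CPM in VPA vehicle mutant (SD, n = 13) and 104 ± 9.81 CPM in ACY957 vehicle mutant libraries (SD, n = 11), which did not pass (0.15, SE 0.05, adjusted p = 0.0897, edgeR). Ndufa8 rose between the drugs by 0.26 (SE 0.06, adjusted p = 0.00778, edgeR), as did Ndufa1 by 0.28 and Ndufa6 by 0.21, accessory subunits.

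Between the vehicles Ndufb4 (0.22), Ndufa4 (0.22) and Ndufa9 (0.18), which are not part of the catalytic core, also rose. So did Ndufv2 (0.20) and Ndufs8 (0.18), core subunits that carry iron-sulfur clusters. In complex II 0 of 4 rose between the vehicles and 1 of 4 between the drugs. That was Sdhc (chromosome 1, 171127165 to 171150603, minus strand), with a lowest, median and highest level of 211, 228 and 252 CPM in VPA mutant and of 170, 197 and 214 CPM in ACY957 mutant libraries. Of the 8 VPA libraries 7 lay above the highest ACY957 library, with a log2 difference of 0.23 (SE 0.05, adjusted p = 0.0115, edgeR).

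Sdha, the catalytic partner of Sdhc, was at 775 ± 14.7 CPM in VPA mutant and 757 ± 26.1 CPM in ACY957 mutant libraries (SD, n = 8 each) and did not pass. In complex III 1 of 8 rose between the vehicles and 0 of 8 between the drugs. Uqcrb, the ubiquinone-binding protein, was at 116 ± 11.2 CPM in VPA vehicle mutant (SD, n = 13) and 97.1 ± 15.6 CPM in ACY957 vehicle mutant libraries (SD, n = 11), or on the log2 scale a difference of 0.26 (SE 0.06, adjusted p = 0.0184, edgeR). Between the drugs its value was 0.23 (SE 0.08, adjusted p = 0.0678, edgeR).

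In complex IV 4 of 16 rose between the vehicles and 2 of 16 between the drugs. Cox5a (chromosome 9, 57521274 to 57532426, plus strand), a subunit on the matrix side, had the smallest p of all members between the vehicles. Its lowest, median and highest levels were 296, 320 and 392 CPM in VPA vehicle mutant and 242, 282 and 320 CPM in ACY957 vehicle mutant libraries. All 13 VPA vehicle libraries lay above the ACY957 vehicle median and 6 above its highest library, with a log2 difference of 0.24 (SE 0.06, adjusted p = 0.0127, edgeR).

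Between the drugs Cox5a had 0.22 (SE 0.07, adjusted p = 0.0450, edgeR), with 329 ± 30.5 CPM in VPA mutant and 282 ± 33.9 CPM in ACY957 mutant libraries (SD, n = 8 each). Cox7c, a small membrane subunit, rose by 0.22 between the vehicles and by 0.29 between the drugs. Cox6c (0.23) and Cox7b (0.19), also small membrane subunits, rose between the vehicles. The tissue forms did not pass, and Cox8b had 0.56 between the vehicles with an SE of 0.29.

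Of the 17 genes with Atp5 names 4 rose in each comparison, Atp5sl, the assembly factor, being 1 of those between the drugs. Atp5g3 rose in both. Atp5g3 (chromosome 2, 73908447 to 73911326, minus strand), the main source of the c subunit, had a lowest, median and highest level of 561, 599 and 678 CPM in VPA vehicle mutant and of 460, 537 and 608 CPM in ACY957 vehicle mutant libraries. The ranges overlapped, but all 13 VPA vehicle libraries lay above the ACY957 vehicle median, with a log2 difference of 0.19 (SE 0.04, adjusted p = 0.0134, edgeR). Between the drugs it had 0.17 (SE 0.05, adjusted p = 0.0491, edgeR).

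Between the vehicles Atp5f1 (0.18) and Atp5j (0.17), parts of the stator, and Atp5b (0.13) also rose. Between the drugs the others were Atp5h (0.22), Atp5sl (0.18) and Atp5g2 (0.26), whose 8 VPA mutant libraries, at 42.7 to 47.5 CPM, lay above all 8 ACY957 mutant libraries, at 32.7 to 40.99 CPM. Atp5g2 had 0.04 (SE 0.06, adjusted p = 0.751, edgeR) between the vehicles. Whether its difference was larger between the drugs than between the vehicles was not tested.

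**Figure D4:**
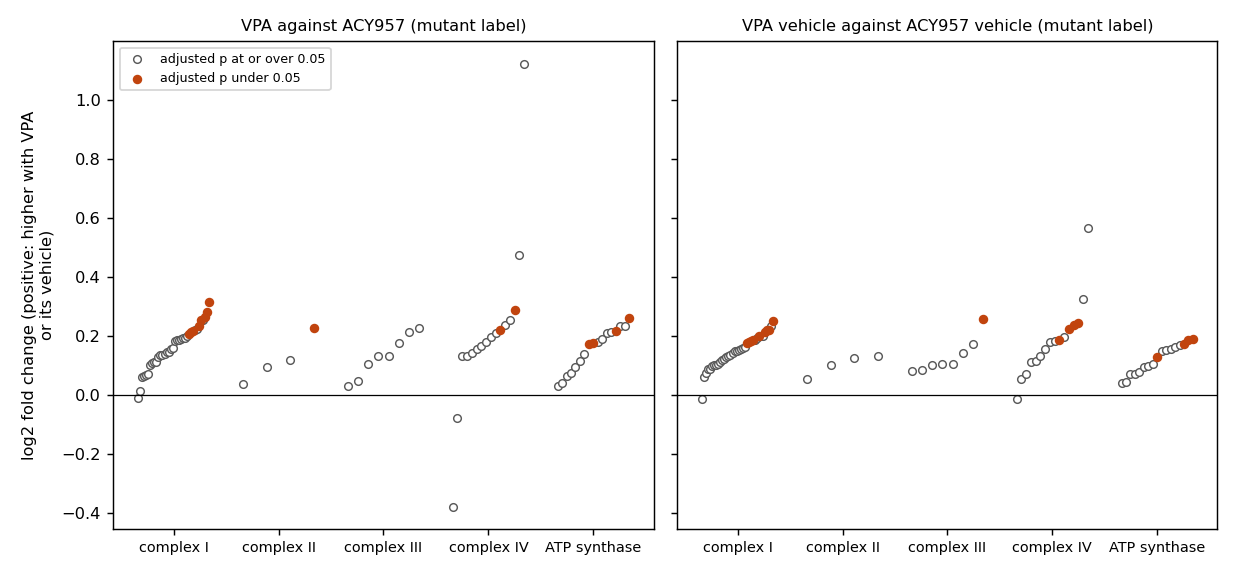
Log2 fold change of each of the 81 genes (y axis) by complex (x axis), for VPA against ACY957 on the left and VPA vehicle against ACY957 vehicle on the right, both under the mutant label; filled points passed at an adjusted p under 0.05. The 15 and 18 filled points all lie above 0.

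Both comparisons called 7 members: Ndufa12, Ndufb5, Ndufb6, Ndufb10, Cox5a, Cox7c and Atp5g3. They are 46.7% of those that passed between the drugs and 38.9% of those between the vehicles. Over all genes called as higher, 61 were shared, 12.3% of those between the drugs and 21.03% of those between the vehicles.

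Under the wildtype label the arms did not give a passing member. In VPA wildtype against ACY957 wildtype libraries, a comparison also added after the data were seen, 0 of 81 passed, where 0.959% of all genes did. There were 17 at unadjusted p under 0.05, 1 passing by DESeq2 and 1 by limma-voom, and a median of 0.10 with 71 members higher. Without ACY957 wildtype replicate 2 or 4, 1 passed. Cox5a was at 318 ± 22.7 CPM in VPA wildtype and 296 ± 16.4 CPM in ACY957 wildtype libraries, and Ndufc1 at 112 ± 6.57 CPM in VPA wildtype and 101 ± 9.36 CPM in ACY957 wildtype libraries (SD, n = 8 each). Between the vehicles labelled wildtype, of 3 and 5 libraries, 0 of 81 passed, where 0.0% of all genes did, with 0 at unadjusted p under 0.05, 0 by DESeq2 and limma-voom, and a median of 0.00 with 39 higher. Single libraries decided that value: the median was 0.07 with 61 higher without VPA vehicle wildtype replicate 1, 0.05 with 60 higher without replicate 2 and -0.11 with 1 higher without replicate 3. It also changed sign among the repeats that left out 1 ACY957 vehicle wildtype library, which ran between -0.04 and 0.03, so no direction is read from it.

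Whether the arms differed more under the mutant label than under the wildtype label was not tested.

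**Figure D5:**
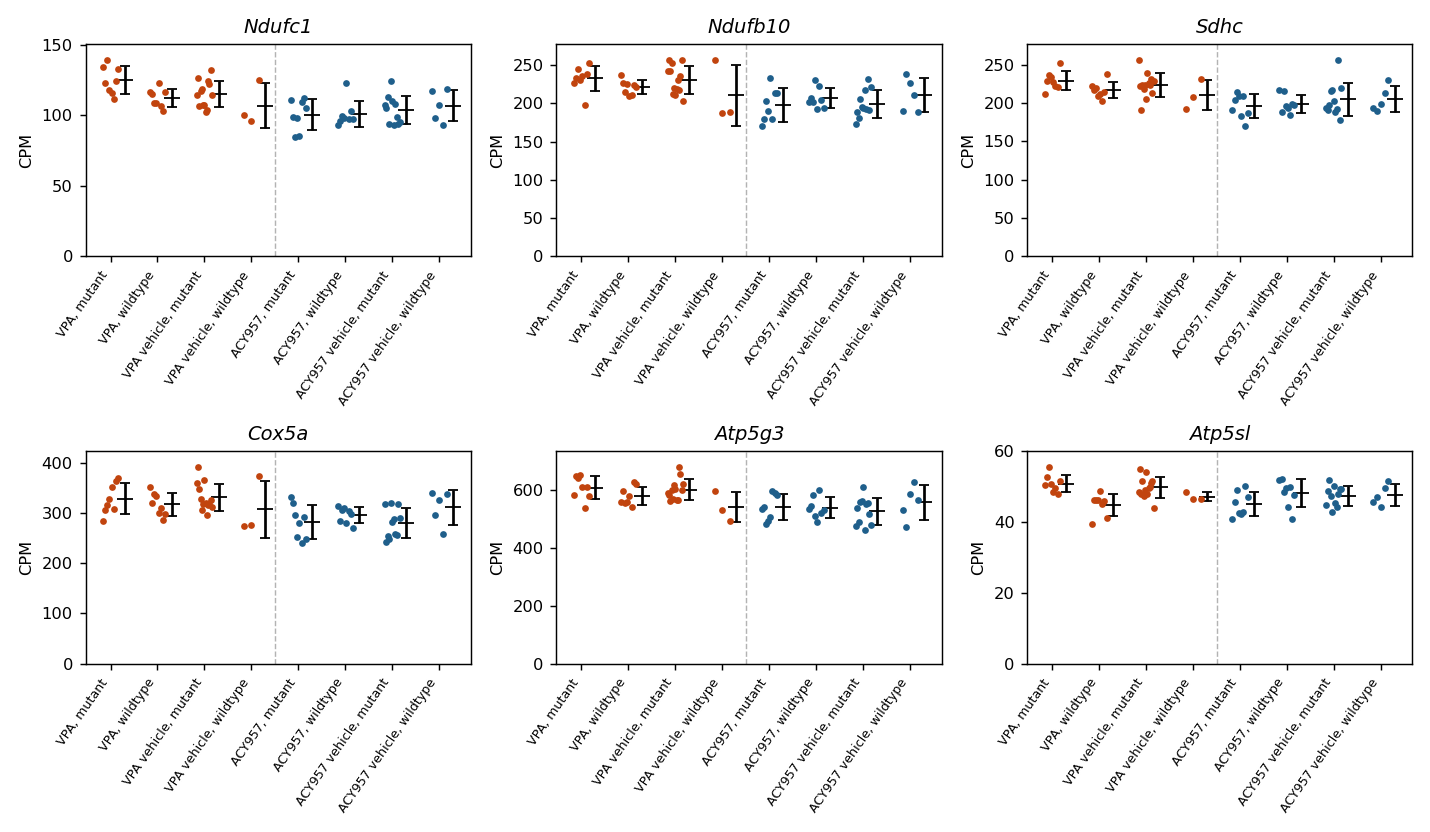
CPM in each library (y axes, starting at 0) of 6 genes in the 8 labelled groups (x axes), with mean and SD beside the points; VPA-arm groups are left of the dashed line. Ndufc1 sits at 111 to 139 CPM in VPA mutant and at 84.2 to 112 CPM in ACY957 mutant libraries.

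Under the mutant label the counts of passing members between the arms moved with single libraries. Between the vehicles the count was 5 to 10 when 1 of VPA vehicle mutant replicates 1, 4, 5, 11 and 13 or ACY957 vehicle mutant replicates 2, 3, 4, 5, 6 and 8 was left out, and 29 to 39 without VPA vehicle mutant replicate 6 or ACY957 vehicle mutant replicates 1, 9 or 11. The median stayed between 0.12 and 0.17. Between the drugs it was 3 to 8 without VPA mutant replicates 3, 5, 7 or 8 or ACY957 mutant replicates 2, 3 or 8, 28 without VPA mutant replicate 2 and 23 without ACY957 mutant replicate 5, with medians between 0.13 and 0.19.

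Between the vehicles the count was 0 without the 16 mutant-labelled vehicle libraries from mouse 48 on, with 26 at unadjusted p under 0.05 and a median of 0.14. It was also 0 without the 8 earlier ones, with 40 and a median of 0.15, and 0 without the libraries discordant in clock output, with 38 and a median of 0.13. Of all genes 7 passed without the 16 later libraries, 7 without the 8 earlier ones and 305 of 15544 without the discordant libraries. In the last repeat other genes passed while no member did. These repeats leave fewer libraries a side, and why the members' counts fell was not tested. With each library's trend on transcript length and GC content removed, 20 members passed between the vehicles, with a median of 0.09, and 6 between the drugs, with a median of 0.07. Of all genes 536 passed between the vehicles and 844 between the drugs under that correction. Cox7c turned to -0.00 between the vehicles under it. Genes no longer than the median member, members left out, had a median of 0.05 between the vehicles and 0.11 between the drugs.

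The other genes of oxidative metabolism were counted in the same fits. Of 6 subunits or partners that the naming rule leaves out, 3 rose between the vehicles: Ndufab1, the acyl carrier subunit of complex I (0.21), Cycs, cytochrome c (0.16), and Cox17, a copper chaperone for complex IV (0.23). Cox17 rose between the drugs too, by 0.31, as 1 of 6. Cyc1 did not pass in either. Of 46 assembly factors tested, Cox17 again among them, 6 rose and 0 fell between the vehicles and 2 rose and 1 fell between the drugs. Ndufaf1 (0.27) and Ndufaf2 (0.26), which help build complex I, led between the vehicles, and Coa3 (0.22), for complex IV, rose and Uqcc1, for complex III, fell by 0.17 between the drugs.

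Of 77 mitochondrial ribosomal protein genes 7 rose and 0 fell between the vehicles, with a median of 0.08, and 4 rose and 0 fell between the drugs, with a median of 0.11. Mrpl30 rose in both, by 0.16 and 0.23. Of 21 carriers and pores 5 rose between the vehicles and 3 between the drugs, and 0 fell. Slc25a5, which exchanges ADP for ATP, rose by 0.24 and 0.20, and Slc25a3, the phosphate carrier, by 0.17 and 0.17.

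The tricarboxylic acid cycle and pyruvate dehydrogenase gave 1 rise of 19 between the vehicles, Dld (0.18), the dehydrogenase component shared by several complexes, and 0 between the drugs. Of 19 glycolysis genes tested 1 fell in each comparison and 0 rose. Both times it was Hk1, the brain hexokinase, which fell by 0.19 between the vehicles and by 0.27 between the drugs. Of 17 regulators of mitochondrial biogenesis 1 rose between the vehicles, Tfb2m (0.20), a mitochondrial transcription factor, and 0 between the drugs. Ppargc1a and Nrf1 were among those that did not pass.

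Markers of cell types and RNA-level lists moved beside the members between the arms. All 10 dopamine neuron markers were lower on the VPA side, with medians of -0.37 between the vehicles and -0.70 between the drugs and 0 passing in either. Their summed level ran between 377 and 9833 CPM in VPA mutant and between 4889 and 10073 CPM in ACY957 mutant libraries, and between 1770 and 9499 CPM in VPA vehicle mutant and between 5023 and 9690 CPM in ACY957 vehicle mutant libraries. Of 10 oligodendrocyte markers 9 were higher between the vehicles, 0 passing, and 10 between the drugs, with Cldn11 and Mal passing. Their sum ran between 10131 and 18455 CPM in VPA mutant and between 9897 and 16830 CPM in ACY957 mutant libraries. Rgs5, of mural cells, rose between the vehicles, the only 1 of 10 endothelial and mural markers to pass. The sum of those 10 had medians of 523 CPM in VPA vehicle mutant and 489 CPM in ACY957 vehicle mutant libraries. The neuronal marker Syt1 fell between the drugs, the only 1 of 12 neuron markers to pass. The sum of those 12 had medians of 7959 CPM in VPA mutant and 8298 CPM in ACY957 mutant libraries. For both sums the ranges overlapped. Of 7 ependymal and choroid plexus markers Tmem212 and Foxj1 rose between the drugs, but the sum of that list was at most 102 CPM in VPA mutant libraries, against 477 CPM in the highest ACY957 mutant library.

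The hypothalamic markers Pmch, Hcrt and Tac2 rose between the drugs, by 4.32, 4.24 and 3.12, and their list's sum reached 612 CPM in a VPA mutant library, against at most 16.7 CPM in ACY957 mutant libraries. Of the 8 on that list Oxt was at 0 in 25 libraries, Avp in 28 and Agrp in 1. Of 79 cytosolic ribosomal protein genes 71 were higher between the vehicles, 0 passing, and 77 between the drugs, 8 passing. Without the 4 libraries low in Th, 27 members passed between the vehicles and 27 between the drugs, and with Th as a covariate 31 and 22. Of all genes 952 and 941 passed without those 4 libraries, and 1286 and 582 with Th as a covariate. In the reported fit 572 and 869 of all genes passed. Beyond these fits, the part of these markers in the members' values was not tested. The arms have different mice, whose numbers interleave in blocks, and the labels give no batch, so the arm cannot be told apart from other differences between those mice.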

How the data were processed

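RNA-seq was done on ventral tegmental area punches of 64 mice, 1 library per mouse. The authors deposited raw counts per gene symbol. Per the series' design text, reads were checked with FastQC 0.11.3, aligned to mm10 with TopHat2 2.0.9 and counted with HTseq 0.6.1 in union mode. The submitters' processing notes name HISAT2 and Trimmomatic instead, so the aligner is uncertain, and the strand setting of the counting is not given in the sources used here. Antisense and overlapping genes can therefore share reads, and 25 members overlap an exon on the other strand. From the deposited counts, edgeR 4.0.16 (R 4.3.3) was fitted with TMM scaling and filterByExpr to 1 model of 8 group means, and 14 comparisons were read from it, with 3 between the arms added after the data were seen. P-values measure the spread between mice, and were adjusted by Benjamini-Hochberg over 15634 genes. SEs were derived from each log2 fold change and its F statistic. CPM scales the deposited counts to the library total adjusted by its TMM factor. Positions and lengths come from GENCODE M21 (mm10), motifs and promoters from RefSeq (GRCm38.p6).

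Alternatives were relative log expression scaling, DESeq2 1.42.0, limma-voom (limma 3.58.1), no filter, the compared groups alone, pooled vehicles, Th as a covariate, a length and GC correction, and leaving out named libraries or each library in turn. The tests were also run on simulated counts, whose outcome is not given here. Each gene was drawn independently there, and the smallest simulated difference exceeded the members' median differences between the arms. That run therefore does not cover genes that vary together or differences as small as these. Genes were named where they passed (the smallest p first), had an extreme level or correlation, were paralogs or lay near the count minimum. Members and lists were chosen with earlier results of these data known.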

Additional observations from a re-analysis of the deposited data

Results flagged for a closer look

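Single libraries stood far from the rest of their group for 7 of the 135 gene and group pairs examined, where chance picks out about 1 in 20. In VPA mutant replicate 2, 4 genes were lower than in the other 7 libraries of the group: Atp5f1 at 421.9 CPM, Atp5j at 249.7 CPM, Ndufa9 at 185.2 CPM and Ndufb6 at 117.9 CPM. In ACY957 wildtype replicate 2, Cox7c at 140.4 CPM and Ndufc1 at 123.0 CPM were higher than in the others. Ndufa9 at 196.1 CPM in VPA wildtype replicate 3 also stood apart. VPA mutant replicate 2 is also among the 4 libraries low in Th and the 13 discordant in clock output, and VPA wildtype replicate 3 is among those low in Th, and what these have to do with the values was not tested.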

How the results depend on the processing

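Counts of passing members kept within 1.5 times of those reported in 166 of 195 pairs of comparison and setting. They were above in 19 and below in 10, and the causes were not tested. Most of these pairs belong to comparisons in which 0 members passed, where a count of 0 that stays at 0 is counted as kept. The 166 therefore say little on the comparisons in which members passed, whose changes are given below. Between the genotype labels under VPA, where 1 passed, DESeq2 and limma-voom gave 2 each, leaving out the 16 later vehicle libraries gave 3, and no low-count filter, the length and GC correction, and leaving out the libraries low in Th, those discordant in clock output or the 8 earlier vehicle libraries gave 0. Leaving out single libraries gave 0 to 3. Of all genes DESeq2 called 262, limma-voom 127 and the fit without the later libraries 253. The named settings that gave 0 members called between 84 and 189 of all genes. For the labels' mean over 4 treatments, where 0 passed, leaving out libraries low in Th gave 3, with 275 of all genes. Th as a covariate gave 4, with 268, and leaving out discordant libraries 6, with 677. Single libraries gave 0 to 5. In the reported fit 252 of all genes passed. For VPA against vehicle, under the mutant label and over both labels, pooled vehicles gave 1 and leaving out the 8 earlier vehicle libraries gave 1. In that order, pooled vehicles called 130 and 450 of all genes, and leaving out the 8 earlier libraries 550 and 56.

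Between the vehicles labelled mutant, where 18 members and 572 of all genes passed, DESeq2 gave 30 members and Th as a covariate 31. Of all genes these called 942 and 1286. Leaving out the 16 later, the 8 earlier or the discordant libraries gave 0 members, with 7, 7 and 305 of all genes. Leaving out single libraries gave 5 to 39 members, with 241 to 1033 of all genes. Between the drugs labelled mutant 15 members and 869 of all genes passed. DESeq2 gave 23 members among 1098 genes, leaving out libraries low in Th 27 among 941, and the compared groups alone 7 among 260. The length and GC correction gave 6 among 844, and single libraries 3 to 28 members, with 233 to 1231 of all genes. Between the drugs labelled wildtype, where 0 passed, DESeq2, limma-voom, Th as a covariate, the length and GC correction and leaving out the 8 earlier vehicle libraries gave 1 each, and single libraries 0 to 1. Apart from single libraries, the settings named for the wildtype label called between 146 and 314 of all genes. Cox7c between the vehicles labelled mutant turned to -0.0039 under the length and GC correction. Settings for discordant and earlier libraries were chosen after seeing the data.

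Ndufc1, Ndufa8 and Sdhc between the drugs, and Cox5a, Atp5g3, Ndufb10, Ndufb6 and Uqcrb between the vehicles, passed whichever single library was left out. No paired analysis was possible because the labels give no replicate numbers shared between groups. Depth limits Cox6a2 and Cox8b, at means of 14.98 and 14.0 counts. The wildtype vehicle groups of 3 and 5 libraries limit every comparison that uses them.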
